A study of Mus musculus with 8 samples.

Results

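Neurexins, neuroligins and the adhesion molecules that bind across the synaptic cleft were followed in fetal mouse brain after prenatal stress. The 9 genes were Nrxn2, Nrxn3 and Cntnap2 of the presynaptic neurexin superfamily, Nlgn1, Nlgn3, Lrrtm1, Lrrtm2 and Lrrtm3 of the postsynaptic side, and Cbln1, which is secreted between them. They were picked by name from the 54752 genes of the count tables, and all 9 passed the filter on low counts that left 17865 genes to test. RNA had been sequenced from 8 wild type C57BL/6 brains taken at E15.5, with 1 library per brain. The methods of the study give the substrain as C57BL/6Slac. The 4 control brains came from a dam without such exposure, and the 4 stress brains from a dam put through chronic unpredictable mild stress (CUMS, a changing schedule of mild stressors) from E5.5 for 10 days. Each group held 2 females (F36 and F37 in control, F34 and F35 in stress) and 2 males (M30 and M31 in control, M28 and M29 in stress). All 4 brains of a group belonged to 1 litter, so stress and litter cannot be told apart, and a p-value measures the spread between littermates. The tissue is whole brain in the study's text and half_whole_brain in its sample sheet.

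Neurexins are presynaptic receptors that reach across the cleft to several kinds of partner. Neuroligins and leucine-rich repeat transmembrane proteins (LRRTMs) hold the postsynaptic side, and cerebellins are secreted bridges that tie a neurexin to a delta glutamate receptor. Contactin-associated proteins such as Caspr2, the product of Cntnap2, resemble neurexins in their outer part but pair with contactins. Members of these families recur among genes linked to autism and schizophrenia. In the fetal brain they are made by young neurons before most synapses have formed.

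Nrxn2, Lrrtm1 and Lrrtm2 were lower in the stress brains, and no member was higher. Of the 9 members, 3 were therefore called lower at an adjusted p under 0.05, against 7.27% of all genes tested, and 0 were called higher, against 6.49%. Every member but Cntnap2 had a fold change below 0, and the median over the 9 was -0.05 on the log2 scale, beside 0.00148 over all genes. In 2 of the 9, Nrxn2 and Lrrtm1, all 4 stress brains lay below all 4 control brains, as in 8.22% of all genes. The members and the gene lists below were chosen with earlier results of these data known. Their counts beside the shares of all genes are therefore a description and no test of an excess. The sizes were small, with the largest fall at 11.3%. Levels are given as counts per 1000000 counts of the library (CPM, TMM-scaled), and a fold change is stress over control from edgeR's quasi-likelihood fit with sex in the model. Confidence intervals are those of each gene alone.

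**Figure D1:**
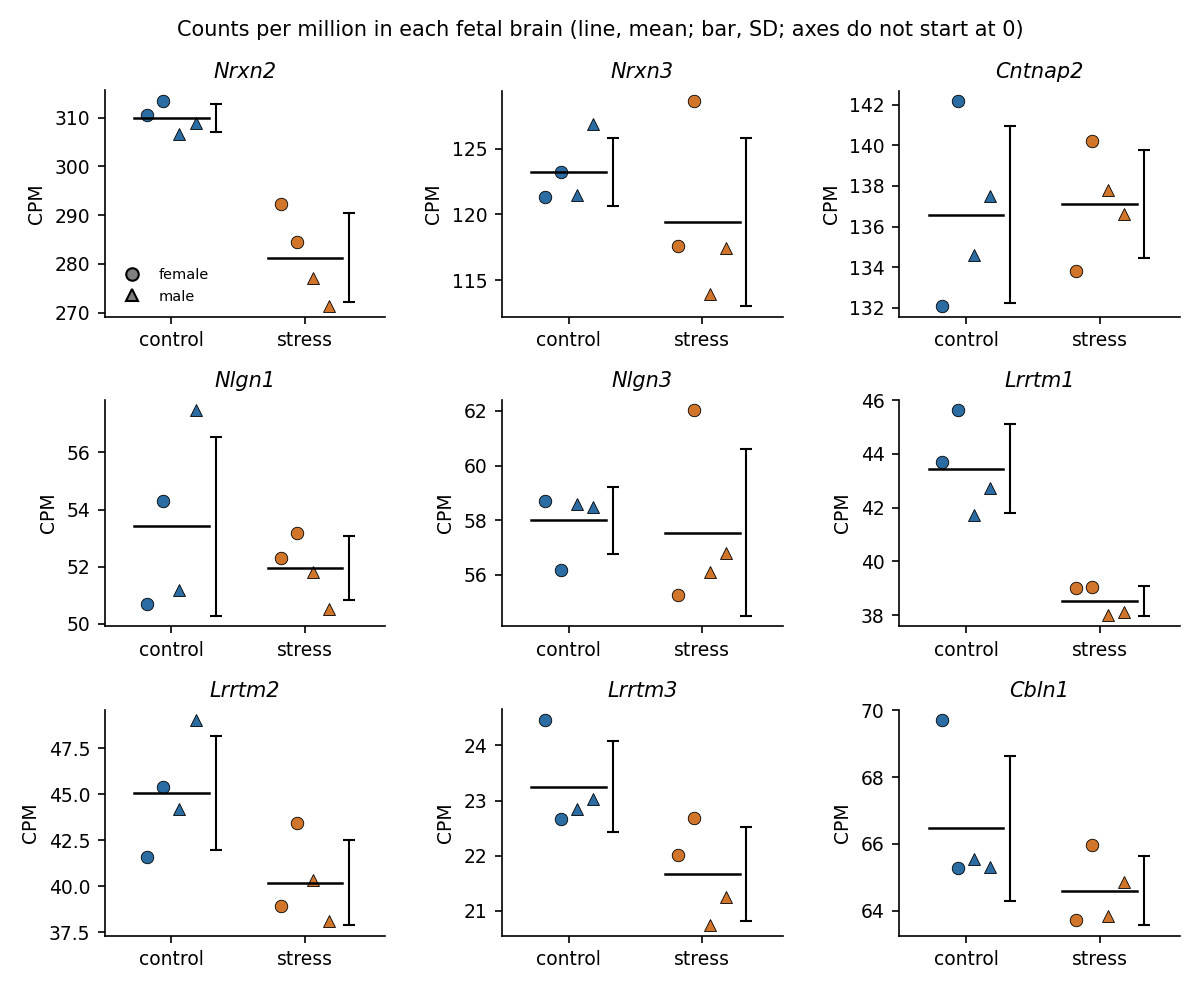
CPM of each member in each brain, with control brains in blue, stress brains in orange, circles for females and triangles for males. Lines are means and bars SD (n = 4), and the vertical axes do not start at 0. Only the Nrxn2 and Lrrtm1 panels show all 4 stress brains below all 4 control brains.

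The libraries were alike in depth, between 25320109 and 29105710 counts. Expression of Xist and of the Y-linked genes Ddx3y, Eif2s3y, Kdm5d and Uty matched the labelled sex in all 8 libraries, with Xist at 1145 to 1278 CPM in females and at most 0.76 CPM in males. Stress M28 stood apart by mesenchyme markers, and stress F34 by Ttr but by no other choroid plexus marker. Stress M28 had 11.7 CPM of the collagen gene Col1a1, against 0.846 to 3.20 CPM in control brains. Stress F34 had 29.9 CPM of the choroid plexus gene Ttr, against 0.564 to 6.95 CPM. Its Folr1 (0.507 CPM), Clic6 (1.23 CPM) and Kl (0.905 CPM), the other choroid plexus markers, lay inside the control range. Without both of these libraries, 2 of the 9 members were called lower, against 5.13% of all genes.

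Among the presynaptic members, Nrxn2 encodes neurexin 2, made as a long alpha and a short beta form, which a gene count does not separate. It lies at chr19:6418731-6544169 on the plus strand of mm10. Its level was 310.6 CPM in control F36, 313.5 in F37, 306.6 in M30 and 308.9 in M31. In the stress group it was 292.2 CPM in F34, 284.5 in F35, 277.1 in M28 and 271.3 in M29. The groups did not overlap, and both stress males sat below both stress females. Nrxn2 fell by 9.26% (95% confidence interval, -12.6% to -5.83%), with a log2 fold change of -0.14 ± 0.03 (SE, n = 4 and 4, edgeR adjusted p = 0.000619). The fall passed the test in each of the 16 alternative fits, where it lay between -0.16 and -0.11. Exons of genes on the opposite strand covered 7.28% of the Nrxn2 exon bases, and pairs lying wholly there were not counted for either gene.

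Nrxn3, at chr12:88722876-90334935 on the plus strand, encodes neurexin 3. Control brains lay between 121.3 and 126.9 CPM, and stress brains at 117.6 in F34, 128.6 in F35, 113.9 in M28 and 117.4 in M29. Stress F35 was above every control brain and the other 3 stress brains were below every one. The log2 fold change was -0.05 ± 0.03 (adjusted p = 0.396), with an interval from -7.65% to 1.48%.

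Cntnap2, at chr6:45059357-47304213 on the plus strand, encodes Caspr2, which clusters potassium channels along axons. Control brains spanned 132.1 to 142.2 CPM and stress brains 133.8 to 140.2 CPM. All stress values thus fell inside the control range. The log2 fold change was 0.01 ± 0.03 (adjusted p = 0.938), and the interval ran from -3.82% to 4.71%.

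On the postsynaptic side, both neuroligins overlapped between the groups. Nlgn1, which marks mainly excitatory synapses, lies at chr3:25426215-26332460 on the minus strand. It ran from 50.7 to 57.5 CPM in control and from 50.5 to 53.2 CPM in stress brains. Its log2 fold change was -0.04 ± 0.04 (adjusted p = 0.571), with an interval from -8.26% to 2.97%. Nlgn3, which acts at excitatory and inhibitory synapses, lies at chrX:101299168-101325963 on the plus strand. Control brains lay between 56.2 and 58.7 CPM, and stress brains at 55.3 in F34, 62.0 in F35, 56.1 in M28 and 56.8 in M29. As for Nrxn3, stress F35 was the highest of all 8. The Nlgn3 log2 fold change was -0.01 ± 0.04 (adjusted p = 0.882), with an interval from -6.10% to 4.71%.

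The 3 LRRTM members gave 2 of the 3 calls. LRRTMs are postsynaptic receptors for neurexins that help to hold AMPA receptors in place. Lrrtm1 lies at chr6:77242689-77257791 on the plus strand. It measured 43.7 CPM in control F36, 45.6 in F37, 41.7 in M30 and 42.7 in M31. The stress brains measured 39.0 CPM in F34, 39.0 in F35, 38.0 in M28 and 38.1 in M29. All 4 stress brains were below the lowest control brain and spread less than the control brains (SD 0.560 against 1.66 CPM). Lrrtm1 fell by 11.3% (interval, -15.9% to -6.36%), with a log2 fold change of -0.17 ± 0.04 (adjusted p = 0.00279), and it too passed the test in each of the 16 alternative fits, from -0.19 to -0.14.

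Lrrtm2 lies at chr18:35209011-35215024 on the minus strand. Control brains measured 41.6 CPM in F36, 45.4 in F37, 44.2 in M30 and 49.0 in M31, and stress brains 38.9 in F34, 43.4 in F35, 40.3 in M28 and 38.1 in M29. Here the groups overlapped, since stress F35 was above control F36. Lrrtm2 fell by 10.9% (interval, -16.8% to -4.56%), with a log2 fold change of -0.17 ± 0.05 (adjusted p = 0.0205). This call was the least stable of the 3 and held in 9 of 16 alternative fits. It was lost without control F37, control M31, stress F34, stress M28 or stress M29, where the adjusted p lay between 0.0515 and 0.115, and also without stress F34 and M28 together (adjusted p = 0.143).

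Lrrtm3, at chr10:63928472-64090277 on the minus strand, was the lowest member by count, with 574 to 672 read pairs per library. It ran from 22.7 to 24.5 CPM in control and from 20.7 to 22.7 CPM in stress brains. Stress F35 was just above control F37, and the other 3 stress brains were below every control brain. The log2 fold change was -0.10 ± 0.05 (adjusted p = 0.162), with an interval from -12.9% to -0.34%.

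Each of the 3 LRRTM genes sits on the opposite strand inside an alpha-catenin gene, Lrrtm1 in Ctnna2, Lrrtm2 in Ctnna1 and Lrrtm3 in Ctnna3. The counting used no strand, so unspliced RNA of the host could be counted on the guest. Host levels are exon counts, which do not measure that unspliced RNA, so its part in the guest counts was not tested. None of the hosts that were tested passed the test. Ctnna2 had a log2 fold change of -0.02 ± 0.03 (adjusted p = 0.669), Ctnna1 of 0.05 ± 0.03 (adjusted p = 0.277), and Ctnna3 stayed between 0.141 and 0.546 CPM and was not tested. Cbln1 lies in the same way inside Gm2694 (chr8:87460469-87525554, opposite strand), which had 7.63 to 9.10 CPM in control and 8.11 to 9.28 CPM in stress brains (0.07 ± 0.08, adjusted p = 0.643).

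Cbln1, the secreted member, encodes cerebellin 1 and lies at chr8:87468405-87472609 on the minus strand. Its level was 69.7 CPM in control F36, 65.3 in F37, 65.6 in M30 and 65.3 in M31, and 63.7 to 66.0 CPM in stress brains. The control values apart from F36 lay inside the stress range. The log2 fold change was -0.04 ± 0.03 (adjusted p = 0.480), with an interval from -7.31% to 1.97%.

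Promoter sequence is shown for Lrrtm1, which was called, and Lrrtm3, which was not, and for the called relatives Nlgn2 and Cbln4 that are described further on. Of the 9 members, 5 were found in the RefSeq promoter table (GRCm38.p6, the build of mm10), with 9 start sites. Nrxn2, Nlgn3 and Cbln1 had no entry. The called member Lrrtm2 was not looked up, so whether it has an entry was not tested. Each line gives the 250 bases before the start site, 5′ to 3′ on the strand of the gene, with motif matches in capitals.
Lrrtm1, chr6:77242227-77242476, plus strand: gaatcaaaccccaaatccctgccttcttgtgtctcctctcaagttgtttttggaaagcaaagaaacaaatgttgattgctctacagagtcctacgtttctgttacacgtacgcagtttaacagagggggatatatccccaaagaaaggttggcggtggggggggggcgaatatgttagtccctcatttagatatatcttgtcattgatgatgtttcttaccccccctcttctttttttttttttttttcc
Lrrtm3, chr10:64090256-64090505, minus strand: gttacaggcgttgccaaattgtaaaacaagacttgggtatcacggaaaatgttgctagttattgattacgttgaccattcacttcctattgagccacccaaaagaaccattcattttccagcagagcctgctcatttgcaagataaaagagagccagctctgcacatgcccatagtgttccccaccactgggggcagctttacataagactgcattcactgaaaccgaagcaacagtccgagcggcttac
Nlgn2, chr11:69837785-69838034, minus strand: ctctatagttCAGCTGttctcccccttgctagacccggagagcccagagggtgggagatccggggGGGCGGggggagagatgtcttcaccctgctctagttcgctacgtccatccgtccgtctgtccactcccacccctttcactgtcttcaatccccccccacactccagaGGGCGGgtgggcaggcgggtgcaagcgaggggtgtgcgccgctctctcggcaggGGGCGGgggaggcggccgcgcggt
Cbln4, chr2:172043467-172043716, minus strand: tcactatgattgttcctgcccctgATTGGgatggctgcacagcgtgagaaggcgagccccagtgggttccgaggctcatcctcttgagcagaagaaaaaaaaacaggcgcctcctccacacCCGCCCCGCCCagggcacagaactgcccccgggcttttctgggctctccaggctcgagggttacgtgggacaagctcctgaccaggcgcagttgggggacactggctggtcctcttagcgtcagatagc

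The motifs searched, on both strands, were the GC box GGGCGG, the CCAAT box CCAAT, the TATA box TATAAA, the E-box CAGCTG and the left part of the neuronal silencer element RE1, TTCAGCACC. The Lrrtm1 and Lrrtm3 windows held none of these letters. Nlgn2 held 3 GC boxes and 1 E-box, and Cbln4 held 2 GC boxes, which overlap by a base, and 1 CCAAT box. Among all 32851 promoters of the same length, 32.7% held the GC box, 33.8% the CCAAT box, 12.4% the TATA box, 13.0% the E-box and 0.301% the RE1 part. The RE1 part was matched in 1 member window, 153 bases before the downstream start of Nlgn1. The windows of Lrrtm1 and Lrrtm3 were 42.0% and 46.0% G or C and those of Nlgn2 and Cbln4 67.6% and 60.8%, beside a median of 52.4% over all promoters. A match is a string of letters, not evidence of binding.

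**Figure D2:**
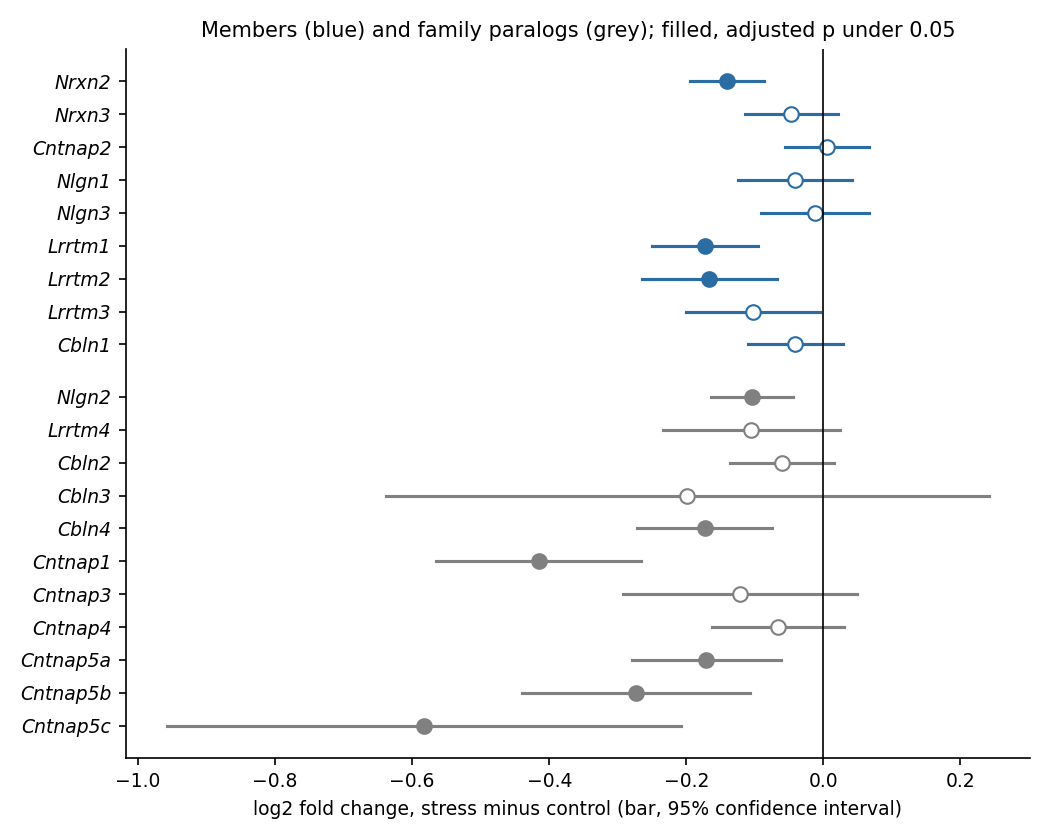
Log2 fold change (stress over control) of the 9 members in blue and of 11 family paralogs in grey, with 95% confidence intervals of each gene. Filled points had an adjusted p under 0.05, and 19 of the 20 points lie below 0, all but Cntnap2. Of all genes tested, 49.4% lay below 0.

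Levels between genes were compared per length, as transcripts per 1000000 (TPM) averaged over the 8 brains. Cbln1 had 83.4 ± 2.34 TPM (SD, n = 8) and Nrxn2 82.7 ± 4.91, and Cbln1 was the higher in 1 of 4 control and 3 of 4 stress brains. The group means were 84.6 TPM for Cbln1 and 86.7 TPM for Nrxn2 in control, and 82.2 and 78.7 TPM in stress brains. Lrrtm1 followed with 52.2 ± 3.68 TPM and Cntnap2 with 51.6 ± 1.35, and their order followed the group. Lrrtm1 was the higher in all 4 control brains (55.4 against 51.5 TPM on average) and Cntnap2 in all 4 stress brains (51.7 against 49.1 TPM). Below them came Nrxn3 at 37.2 ± 1.71 TPM, Lrrtm2 at 29.1 ± 2.61, Nlgn3 at 24.1 ± 0.983, Lrrtm3 at 20.4 ± 1.10 and Nlgn1 at 15.2 ± 0.764. Lrrtm2 and Nlgn3 overlapped in range although Lrrtm2 was higher in all 8 brains, and the other steps down this lower part of the order did not overlap.

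The Nlgn3 level is too low as counted. A predicted gene on the same strand, Gm21986, covers 41.2% of its exon bases, and pairs overlapping both alike were left out. Over the unshared exon length alone Nlgn3 came to 41.0 TPM, which placed it above Nrxn3 (38.5 TPM on that scale) and moved Nrxn2 (89.2 TPM) above Cbln1. That scale assumes that no pair reaching into a shared part was counted, which was not tested, so its values may be too high. With CPM per length in place of TPM, no rank changed, but both use the same counts and lengths, so the order within a brain cannot differ.

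**Figure D3:**
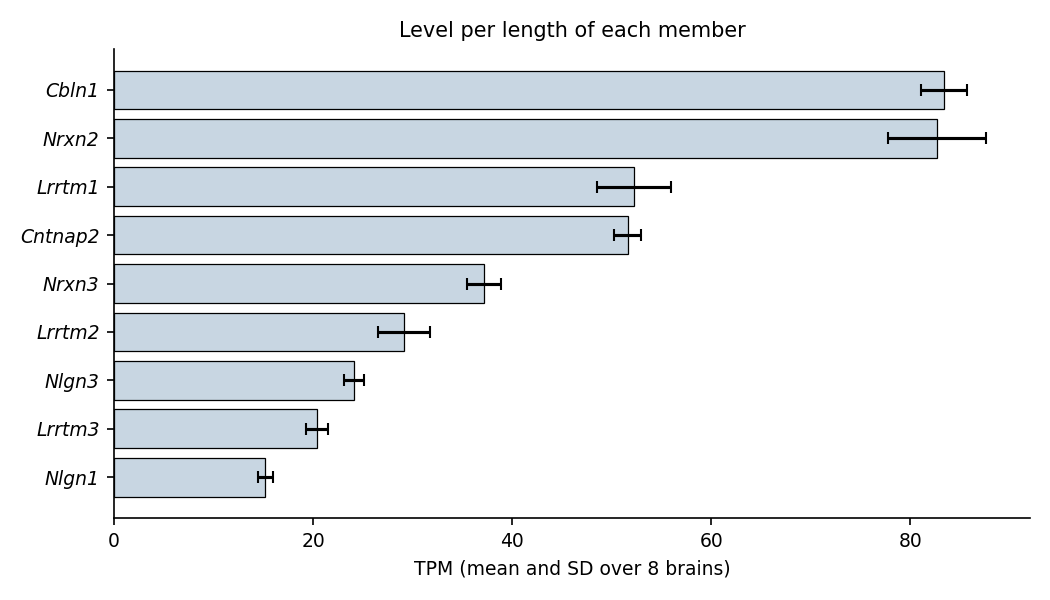
Level per length (TPM) of each member, as the mean over 8 brains with SD. Cbln1 and Nrxn2 lead with 83.4 and 82.7 TPM, and Nlgn1 is lowest with 15.2 TPM.

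Within the neuroligins and LRRTMs the shares of the summed TPM were close between groups. Nlgn2, whose protein sits at inhibitory synapses, held 84.4 ± 0.538% of neuroligin TPM in control and 83.6 ± 0.733% in stress brains. Nlgn1 held only 6.09 ± 0.445% and 6.30 ± 0.139%. These shares used TPM over the full exon length, where Nlgn3 is too low as counted, so the share of Nlgn2 is too high. Lrrtm4, with 25.1% of its exon bases shared with another gene, raises the LRRTM shares of the others in the same way. Lrrtm1 held 47.7 ± 1.42% of LRRTM TPM in control and 47.0 ± 0.699% in stress brains. Among the cerebellins, Cbln1 held 41.3 ± 1.52% in control and 42.1 ± 0.461% in stress brains, and Cbln2 43.1 ± 1.21% and 43.4 ± 0.481%. Cbln4 held 15.2 ± 0.694% in control and 14.1 ± 0.456% in stress brains, and the groups overlapped.

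The sexes were also fitted alone, 2 stress brains against 2 control brains. In females Lrrtm1 was the only member called, at -0.19 ± 0.06 (log2, adjusted p = 0.0439), with 2.27% of all genes called lower. Lrrtm1 ran at 43.7 and 45.6 CPM in control females and at 39.0 and 39.0 CPM in stress females. This call held in 3 of 7 alternative fits and was lost in DESeq2 (adjusted p = 0.422) and without control F36, control F37 or stress F34 (adjusted p = 0.0645 to 0.399). In males Nrxn2 (-0.17 ± 0.04, adjusted p = 0.00226) and Lrrtm2 (-0.25 ± 0.06, adjusted p = 0.00601) were called, with 4.81% of all genes called lower. Male Lrrtm2 ran at 44.2 and 49.0 CPM in control and at 40.3 and 38.1 CPM in stress brains, whereas the female groups overlapped. The male call held in 6 of 7 alternative fits for Nrxn2 and in 3 of 7 for Lrrtm2.

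A call in 1 sex and not in the other is no difference between them. In the test of that difference, the sex by stress interaction, 0 of 9 members were called and 0.0056% of all genes were, which is 1 gene. No member reached an unadjusted p under 0.05 either. For Lrrtm2 the male minus female difference in log2 fold change was -0.17 ± 0.09 (adjusted p = 0.820, interval -0.36 to 0.02). For Nrxn3 it was -0.11 ± 0.06 (adjusted p = 0.823, interval -0.24 to 0.02), with a fold change of -0.10 ± 0.04 in males and 0.01 ± 0.05 in females. Between males and females as such, 0 members were called, with 0.0896% of all genes called. The male over female log2 fold changes of the members lay between -0.06 (Lrrtm3) and 0.02 (Lrrtm2).

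**Figure D4:**
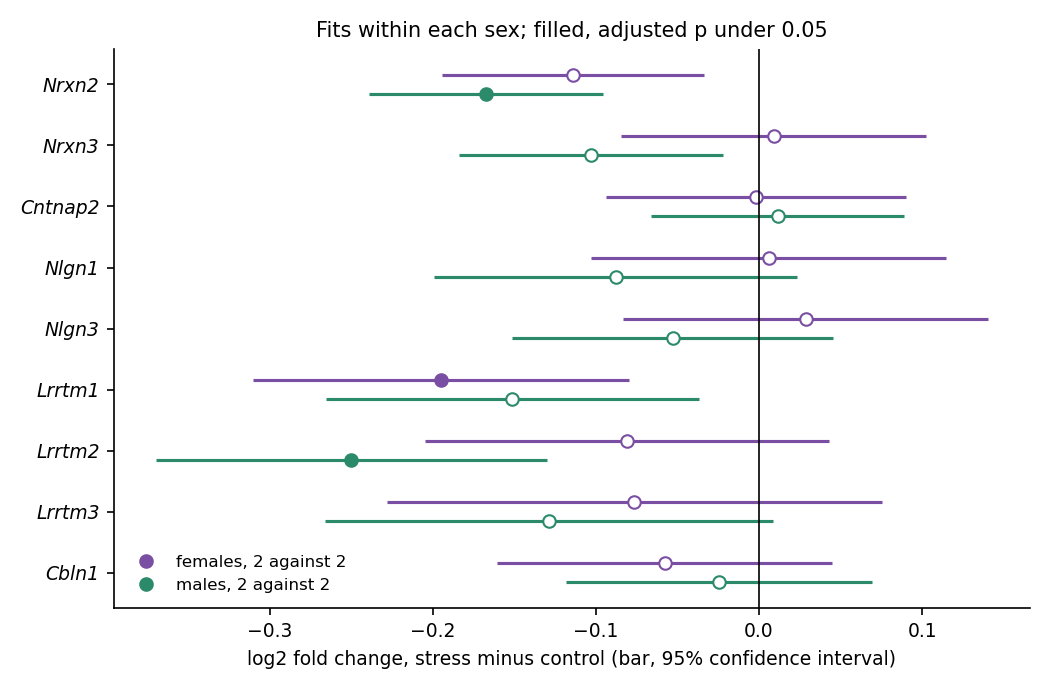
Log2 fold change (stress over control) of each member fitted in females (purple) and in males (green), 2 brains against 2, with 95% confidence intervals. Filled points, Lrrtm1 in females and Nrxn2 and Lrrtm2 in males, had an adjusted p under 0.05, and the intervals of the 2 sexes overlap for every member.

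Among 11 paralogs of the same families, 6 were called lower, against 7.27% of all genes tested, and 0 higher, against 6.49%. All 11 had a fold change below 0 (median -0.17 on the log2 scale), as had 49.4% of all genes. Nlgn2, the neuroligin of inhibitory synapses, ran from 312.3 to 325.2 CPM in control and from 279.8 to 311.0 CPM in stress brains, and fell by 6.95% (log2 fold change -0.10 ± 0.03, adjusted p = 0.0163). Cbln4, secreted like Cbln1, ran from 21.9 to 23.9 CPM in control and from 19.7 to 21.5 CPM in stress brains (-0.17 ± 0.05, adjusted p = 0.0159). In neither gene did the groups overlap, and 8.22% of all genes likewise had every stress brain below every control brain. Lrrtm4 (-0.10 ± 0.06, adjusted p = 0.298) and Cbln2 (-0.06 ± 0.04, adjusted p = 0.318) were not called.

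The Caspr family held the other 4 calls. Cntnap1, whose protein Caspr builds the junction between axon and myelin beside the node, ran from 15.0 to 19.2 CPM in control and from 10.8 to 13.6 CPM in stress brains (-0.42 ± 0.07, adjusted p = 0.000326). Cntnap5a (-0.17 ± 0.05, adjusted p = 0.0303), Cntnap5b (-0.27 ± 0.08, adjusted p = 0.0236) and Cntnap5c (-0.58 ± 0.18, adjusted p = 0.0327) were lower as well. Cntnap5c rested on 47 to 142 read pairs per library. Its call held in 3 of the 8 fits without a brain, and without control F37 its fold change was -0.30 (adjusted p = 0.280). Cntnap2, the member of this family, stayed within the control range as described.

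Other genes of the trans-synaptic network were taken as 3 lists. Of 24 neurexin binding partners, 2 were called lower, a share near the 7.27% of all genes called lower, and 0 higher. Of 23 receptor phosphatase hubs and their ligands, 7 were lower and 1 was higher. Of 22 other adhesion genes, 6 were lower and 2 were higher. Their median log2 fold changes were -0.05, -0.07 and -0.05. With the paralogs, 21 of 80 genes were called lower and 3 higher.

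The 5 largest falls began with Cntn1, a contactin that pairs with Caspr beside the node. Cntn1 ran at 101.3 to 112.3 CPM in control and 78.5 to 96.9 CPM in stress brains (-0.28 ± 0.04, adjusted p = 0.000111). Lrfn2, a postsynaptic leucine-rich repeat protein, had -0.26 ± 0.07 (adjusted p = 0.00821). Apba1, which encodes the presynaptic scaffold Mint1 that binds the inner end of neurexins, ran from 165.9 to 171.4 CPM in control and from 138.1 to 154.4 CPM in stress brains (-0.21 ± 0.03, adjusted p = 4.11e-05). Clstn2, a calsyntenin of the postsynaptic side, had -0.20 ± 0.04 (adjusted p = 0.000449), and Tenm1, a teneurin, -0.19 ± 0.05 (adjusted p = 0.0114).

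In these lists 3 genes were higher in the stress brains. Ntng2, the netrin-G2 axonal adhesion gene, ran from 38.0 to 42.3 CPM in control and from 43.9 to 48.5 CPM in stress brains (0.17 ± 0.04, adjusted p = 0.00844). Tenm4, another teneurin, had 0.16 ± 0.03 (adjusted p = 0.00153) with no overlap. Cntn2, the contactin that pairs with Caspr2, had 0.11 ± 0.03 (adjusted p = 0.0127), and stress F35 at 462.4 CPM lay inside its control range.

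**Figure D5:**
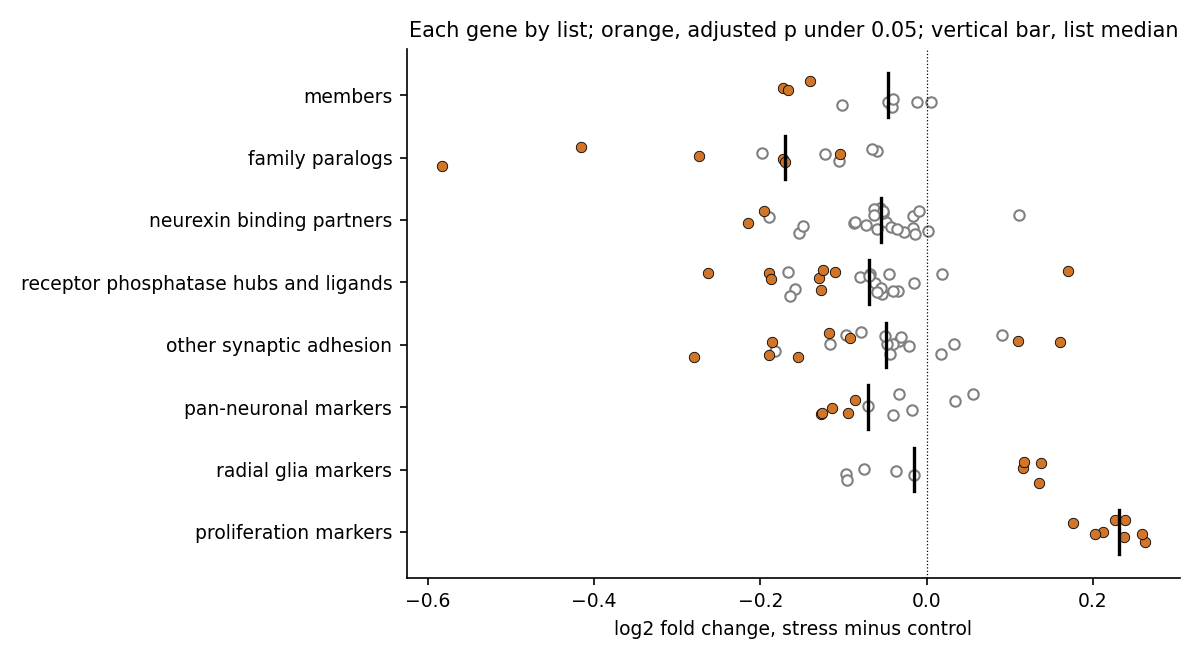
Log2 fold change (stress over control) of every gene tested in 8 lists, with genes at an adjusted p under 0.05 in orange and list medians as vertical bars. Calls among the synaptic adhesion lists lie mostly below 0, as do those among pan-neuronal markers, and all 8 proliferation markers lie above 0.

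Shifts in the mix of cells were read from marker lists. Of 11 pan-neuronal markers, 5 were called lower and 0 higher, with a median of -0.07. The first of the list, Tubb3 (-0.02 ± 0.02, adjusted p = 0.694) and Map2 (-0.04 ± 0.03, adjusted p = 0.383), were not called. Rbfox3, a marker of maturing neurons, was called lower and had the lowest fold change of the list (-0.13 ± 0.03, adjusted p = 0.00880). Above 0 were 2 of the 11, Dcx (0.06 ± 0.03, adjusted p = 0.205) and Elavl4 (0.03 ± 0.03, adjusted p = 0.482), neither of them called. The summed level of the list ran from 7773 to 8020 CPM in control and from 7608 to 7949 CPM in stress brains. All 8 proliferation markers were higher, among them Mki67 (0.21 ± 0.03, adjusted p = 3.25e-05) and Top2a (0.24 ± 0.03, adjusted p = 1.48e-05), with a sum of 527.8 to 572.1 CPM in control and 602.2 to 689.1 CPM in stress brains. Of 9 radial glia markers, 4 were higher, among them Sox2 (0.12 ± 0.03) and Pax6 (0.14 ± 0.03), and 0 were called lower. The other 5 had fold changes below 0 that did not pass the test, and the median of the list was -0.02. In bulk tissue, fewer neurons and less RNA of a gene per neuron cannot be told apart, and the part of these shifts in the results was not tested.

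Set against the mean log2 CPM of the 11 neuronal markers in the same brain, every member overlapped between the groups. The stress minus control difference of this ratio was -0.12 (log2) for Lrrtm1, -0.11 for Lrrtm2, -0.08 for Nrxn2 and -0.04 for Lrrtm3. It was 0.01 for Nrxn3, 0.02 for Nlgn1, 0.02 for Cbln1, 0.04 for Nlgn3 and 0.06 for Cntnap2. The median of the markers was Elavl4 in all 8 brains, 1 of the 2 markers with a fold change above 0 (0.03 ± 0.03, adjusted p = 0.482). Set against Elavl4 alone, all 9 members came out lower by the same step, so the sign of the last 5 depends on the reference. The values were then -0.17 for Nrxn2, -0.21 for Lrrtm1, -0.20 for Lrrtm2, -0.13 for Lrrtm3, -0.08 for Nrxn3, -0.07 for Nlgn1, -0.07 for Cbln1, -0.05 for Nlgn3 and -0.03 for Cntnap2. When library sizes were instead scaled to the summed counts of these markers, Nrxn2 (-0.11, adjusted p = 0.0169) and Lrrtm1 (-0.14, adjusted p = 0.0215) were still called lower, with 4.11% of all genes, and Lrrtm2 was not (-0.14, adjusted p = 0.0560). The most abundant markers weigh most in that sum, namely Tubb3, Map2 and Dcx, which were not called, and Stmn2, which was called lower. That scaling called 735 genes lower and 1522 higher over all genes, against 1298 and 1160 with TMM.

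Markers of brain regions and of other cells were read in the same fit. Of 5 cortex markers, 3 were higher and 0 lower, with Emx1 at 0.25 ± 0.05 and Neurod6 at 0.09 ± 0.03 (adjusted p = 0.0557). Of 6 ventral forebrain markers 1 was higher, and Dlx1 had 0.07 ± 0.03 (adjusted p = 0.0698) and Dlx2 0.13 ± 0.04. Of 4 thalamus markers 2 were higher, and Tcf7l2 (0.06 ± 0.03) and Gbx2 (0.07 ± 0.08) were not called. Of 5 midbrain markers 1 was higher, and En1 (0.03 ± 0.06) and En2 (0.15 ± 0.05) were not called. None of 7 hindbrain markers was called, with Hoxa2 at -0.13 ± 0.13 and Hoxb2 at -0.22 ± 0.21. Hoxb4 (-0.51 ± 0.30, adjusted p = 0.294), another of the 7, was at 1.48 CPM in stress F34 and 0.941 CPM in stress M28, against 3.07 to 6.19 CPM in control brains and 6.87 and 3.83 CPM in stress F35 and M29. It was called lower in the fit of males (-0.92 ± 0.27, adjusted p = 0.0261). Summed CPM of the cortex list ran from 997.0 to 1026 in control and from 1049 to 1094 in stress brains, and that of the hindbrain list from 60.3 to 70.6 and from 60.5 to 69.4.

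Of 5 endothelial markers 3 were lower and 0 higher, with Cldn5 at -0.13 ± 0.04 (adjusted p = 0.0267) and Pecam1 at -0.09 ± 0.06 (adjusted p = 0.374). Kdr (-0.29 ± 0.04, adjusted p = 8.35e-05) and Flt1 (-0.41 ± 0.06, adjusted p = 2.19e-05) had larger falls. Summed, the list had 136.3 to 151.1 CPM in control and 120.3 to 128.9 CPM in stress brains. None of 5 microglia markers was called (Cx3cr1 -0.01 ± 0.09, Csf1r 0.07 ± 0.08). Of 5 erythroid markers 2 were higher, and Hba-a1 was not called (-0.04 ± 0.03) while the embryonic Hba-x was (1.09 ± 0.15). Of 4 mesenchyme markers tested of 5, 3 were higher, with Col1a1 at 1.59 ± 0.39 and Col1a2 at 0.79 ± 0.21. Of 4 choroid plexus markers 1 was higher, with Ttr at 1.91 ± 0.47 and Folr1 at -0.20 ± 0.33. The part of these lists in the results for the members was not tested.

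The genes whose log2 CPM tracked Nrxn2 most closely over the 8 brains were sought among all genes tested. They were Nptxr (Pearson r = 0.996), a neuronal pentraxin receptor, Slc12a5 (r = 0.996), the neuronal chloride exporter KCC2, Hcn3 (r = 0.992), a pacemaker channel, Arhgap44 (r = 0.992) and Jph4 (r = 0.988). All 5 were lower in the stress brains, with log2 fold changes from -0.31 (Arhgap44) to -0.16 (Nptxr). Among the members, Lrrtm1 was nearest (r = 0.934), then Lrrtm3 (r = 0.807) and Lrrtm2 (r = 0.704), and Cntnap2 was farthest (r = -0.09). These values describe 8 brains in 2 groups that already differ in Nrxn2, so they partly restate that difference and carry no test.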

How the data were processed

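RNA of 8 E15.5 fetal mouse brains (4 control, 4 stress) had been captured with oligo dT beads and sequenced in pairs. The authors trimmed reads with Trim Galore, mapped them on mm10 (TopHat2 2.1.1) and assigned pairs to GENCODE vM20 exons by gene (featureCounts 1.6.3), without a strand option. The deposited values are these raw counts, with no normalization. Pairs overlapping more than 1 gene alike are left out by that counter's default. Group and sex came from the labels and litter from the sample sheet.

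From the counts, 17865 genes passed filterByExpr (minimum count 10, by group) and were scaled by TMM. They were tested with the quasi-likelihood test of edgeR 4.0.16 in R 4.3.3, with sex and group in the model and Benjamini-Hochberg adjustment over all genes. The threshold for a call was an adjusted p of 0.05. Each SE is the size of the log2 fold change over the root of F. Each sex was fitted alone, and the interaction and male against female over all 8 brains. CPM were TMM-scaled, log2 CPM had a prior count of 2, and TPM used exon lengths of the count tables. Depth was 25320109 to 29105710 counts per library. With 4 against 4 brains an exact permutation p cannot go below 0.0286. The common biological variation was 3.14%. The scripts were tested on simulated data.

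The text names every member, Nlgn2, Lrrtm4, Cbln2, Cbln4 and each called paralog, the 5 largest called falls and the called rises of the other lists, up to 5, the host genes, the first 2 genes of each marker list, the sex genes, and the 5 genes most correlated with the member of smallest p. Rbfox3, Dcx, Stmn2, Hba-x, Hoxb4, Gm2694, Elavl4, Clic6, Kl, Kdr and Flt1 were named after their values were seen. A gene of the paralog list and a gene of the cortex list are not reported here, and the counts leave them out. Members, lists and rules were chosen with earlier results of these data known. Alternatives were DESeq2 1.42.0, limma-voom (limma 3.58.1), other scalings, no filter, no sex term and leaving out each brain. Leaving out stress F34 and M28 together was chosen after seeing the data. Sequences were taken from RefSeq (GRCm38.p6).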

Additional observations from a re-analysis of the deposited data

Results flagged for a closer look

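Among the 18 groups of 4 values (9 members, 2 groups), 2 had a brain far from the other 3, where chance gives about 1 in 20. Nlgn3 in control F37 was low at 56.2 CPM, beside 58.5 to 58.7 CPM in the other control brains, a gap of 0.913 of the range of the group. Cbln1 in control F36 was high at 69.7 CPM, beside 65.3 to 65.6 CPM, a gap of 0.939 of the range. Neither gene was called in any of its 16 alternative fits. No member had a stress effect that differed between the sexes by test.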

How the results depend on the processing

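The calls of Nrxn2 and Lrrtm1 lower in stress held in all 16 alternative fits of stress against control, and Lrrtm2 in 9. The count of members called lower was 3 in every fit but the scaling to neuronal markers, the fit without stress F34 and M28, and 5 of the 8 fits without a brain, where it was 2. No member was called higher in any of them. DESeq2 called 911 genes lower and 748 higher over all genes, against 1298 and 1160 in edgeR. Scaling to neuronal markers called 735 lower and 1522 higher, so the lower share of calls dropped there. Without stress F34 and M28, 940 were lower and 741 higher. Leaving out each brain gave 854 to 1308 lower and 736 to 1057 higher, the fewest without stress M29.

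Among the named genes, signs in stress against control turned only where the gene was not called. Cntnap2 had -0.000236 (log2) without a filter and -0.016 to 0.028 with a brain left out, Nlgn1 -0.071 to 0.0037 with a brain left out, and Nlgn3 -0.055 to 0.012. Nlgn3 had 0.015 and Ctnna2 0.00671 under scaling to neuronal markers, and Nlgn3 0.032 without stress F34 and M28. Among the paralogs, Cntnap1 was called in all 16 fits, Nlgn2 and Cntnap5b in 12, Cbln4 in 10, and Cntnap5a and Cntnap5c in 8. Of the other named genes, Tenm1 was called in 12, Cntn2 in 14 and Ntng2 in 15, and Cntn1, Lrfn2, Apba1, Clstn2 and Tenm4 in 16.

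Fits within a sex were less stable. In females DESeq2 called 125 genes and 0 members, against 702 and 1 in edgeR, and with a brain left out edgeR called 155 (without control F36) to 1249 (without stress F35) genes and 0 to 1 members. Lrrtm1 lost its female call without control F36, control F37 or stress F34. Female Nrxn3 ran from -0.055 to 0.073 with a female left out. In males DESeq2 called 377 genes and 1 member, against 1533 and 2. Without a filter edgeR called 0 genes and 0 members in males, although 3585 genes and 4 members had an unadjusted p under 0.05, and the cause was not tested. With a male left out it called 557 (without stress M29) to 1555 genes and 1 to 2 members, and Lrrtm2 lost its call without control M31 or stress M29. A lone brain in such a fit is assumed to vary like the others. For the interaction DESeq2 called 2 genes, the unfiltered fit 37 and the fits with a brain left out 0 to 6, and 0 members throughout. Between the sexes the unfiltered fit called 64 genes, and Lrrtm2 ran from -0.031 to 0.066 with a brain left out. The lowest count of a member was 574 read pairs, in Lrrtm3, whose counting error is therefore the widest of the 9. No paired analysis was possible because the replicate names are animals and shared by no pair of groups.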
